A study of Mus musculus with 12 samples.

Results

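The mitochondrial ribosomal proteins are the nuclear-encoded proteins of the ribosome that works inside mitochondria. They were taken here by symbol, as every gene whose name begins with Mrpl or Mrps followed by a digit. The deposited table held 77 such genes, 48 named for the large subunit and 29 for the small subunit, among 21125 genes in all. They came from 278 of the 67355 rows of the table, which were summed per gene. RNA-seq had been run on microglia, the resident macrophages of the brain, from the midbrain of mice, sorted by flow cytometer. Control mice (WT) had the genotype Ppargc1a FF and deficient mice (KO) the genotype Ppargc1a FF CreER, so both carried the floxed allele and only KO carried the inducible recombinase. Mice of either genotype received PBS or MPTP, a toxin of dopaminergic neurons, and all groups were sampled 6 weeks after tamoxifen. The sources used here do not name the promoter that drives the recombinase, the age of the mice or how many animals a sample holds. The comparisons ask how the genes answer to MPTP, to loss of Ppargc1a, and to both.

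The mitochondrial ribosome translates the few messenger RNAs of the mitochondrial genome, all of which encode subunits of the respiratory chain and ATP synthase. Its ribosomal RNAs are made inside the organelle, while each of its proteins is made in the cytosol from a nuclear gene and imported. Some of its proteins have counterparts in bacterial ribosomes and others exist only in mitochondria. Ppargc1a encodes PGC-1alpha, a coactivator that raises transcription of nuclear genes for mitochondria through factors such as the nuclear respiratory factors and the estrogen-related receptors. In microglia, as in other macrophages, oxidative metabolism shifts with the state of activation.

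The labels give 4 groups of 3 samples, 12 columns in all, but 6 of these columns were arithmetic functions of others. In each group the third column equalled 0.1 plus 0.99 times the mean of the first and second. The column WT MPTP 2 was 1.02 times WT MPTP 1, and KO MPTP 1 was 1.02 times KO PBS 2. These relations held to rounding in all 278 rows of the 77 genes. The measurements therefore rest on 6 separate profiles. WT has PBS 1, PBS 2 and MPTP 1, and KO has PBS 1, PBS 2 and MPTP 2. The profile KO PBS 2 stands under both KO treatments, and which one it had cannot be told. It was left out where treatments were compared and kept, as a KO profile, where genotypes were compared over both treatments. No source ties a profile to its own animal. The p-values below therefore cover profile-to-profile spread alone, and that spread may be technical. Values were taken as FPKM (fragment counts divided by transcript length and by the mapped total of the library). Read depth is unknown, and FPKM totals per column ran from 388861 to 434022.

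Ppargc1a itself stood at 5.70 and 6.21 FPKM in WT under PBS and at 2.72 FPKM in WT under MPTP. In KO it stood at 0.33 FPKM in PBS 1, 0.12 FPKM in PBS 2 and 0.42 FPKM in MPTP 2. All 3 KO profiles were below all 3 WT profiles. Of 13 markers of microglia and macrophages, Cd68 and Tyrobp averaged 479 and 433 FPKM, while Cx3cr1, P2ry12, Siglech, Fcrls and Sall1 were under 1 FPKM, so part of the set that defines microglia was near absent. The summed level of the 13 markers was 1320 to 1360 FPKM in WT and 1210 to 1310 FPKM in KO. Only 2 of 8 neuron markers, Syt1 and Tubb3, had values, and they summed to at most 0.03 FPKM in any profile. Of the vessel markers, Flt1 averaged 86.9 FPKM while Pecam1 and Kdr were under 1 FPKM. The part of these differences in the results was not tested. In bulk RNA, fewer cells of a type and less RNA per cell cannot be told apart.

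All 77 genes were expressed in every profile. Their mean levels over the 6 profiles ran from 5.26 FPKM for Mrps28 to 133 FPKM for Mrps21, a 25.3-fold range with a median of 25.3 FPKM. The median over the 10634 genes that passed the filter on low values (1 FPKM or more in 3 or more of the 6 profiles) was 10.2 FPKM, and all 77 passed it. Most members, 59, averaged between 10 and 50 FPKM, 9 averaged above 50 FPKM and 9 below 10 FPKM. Their scatter between profiles was small, with a coefficient of variation from 2.27% for Mrps17 to 9.78% for Mrps6 and a median of 5.22%, beside 5.59% for all tested genes. The range of levels across the 77 genes was therefore far larger than any difference between profiles for 1 gene.

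**Figure D1:**
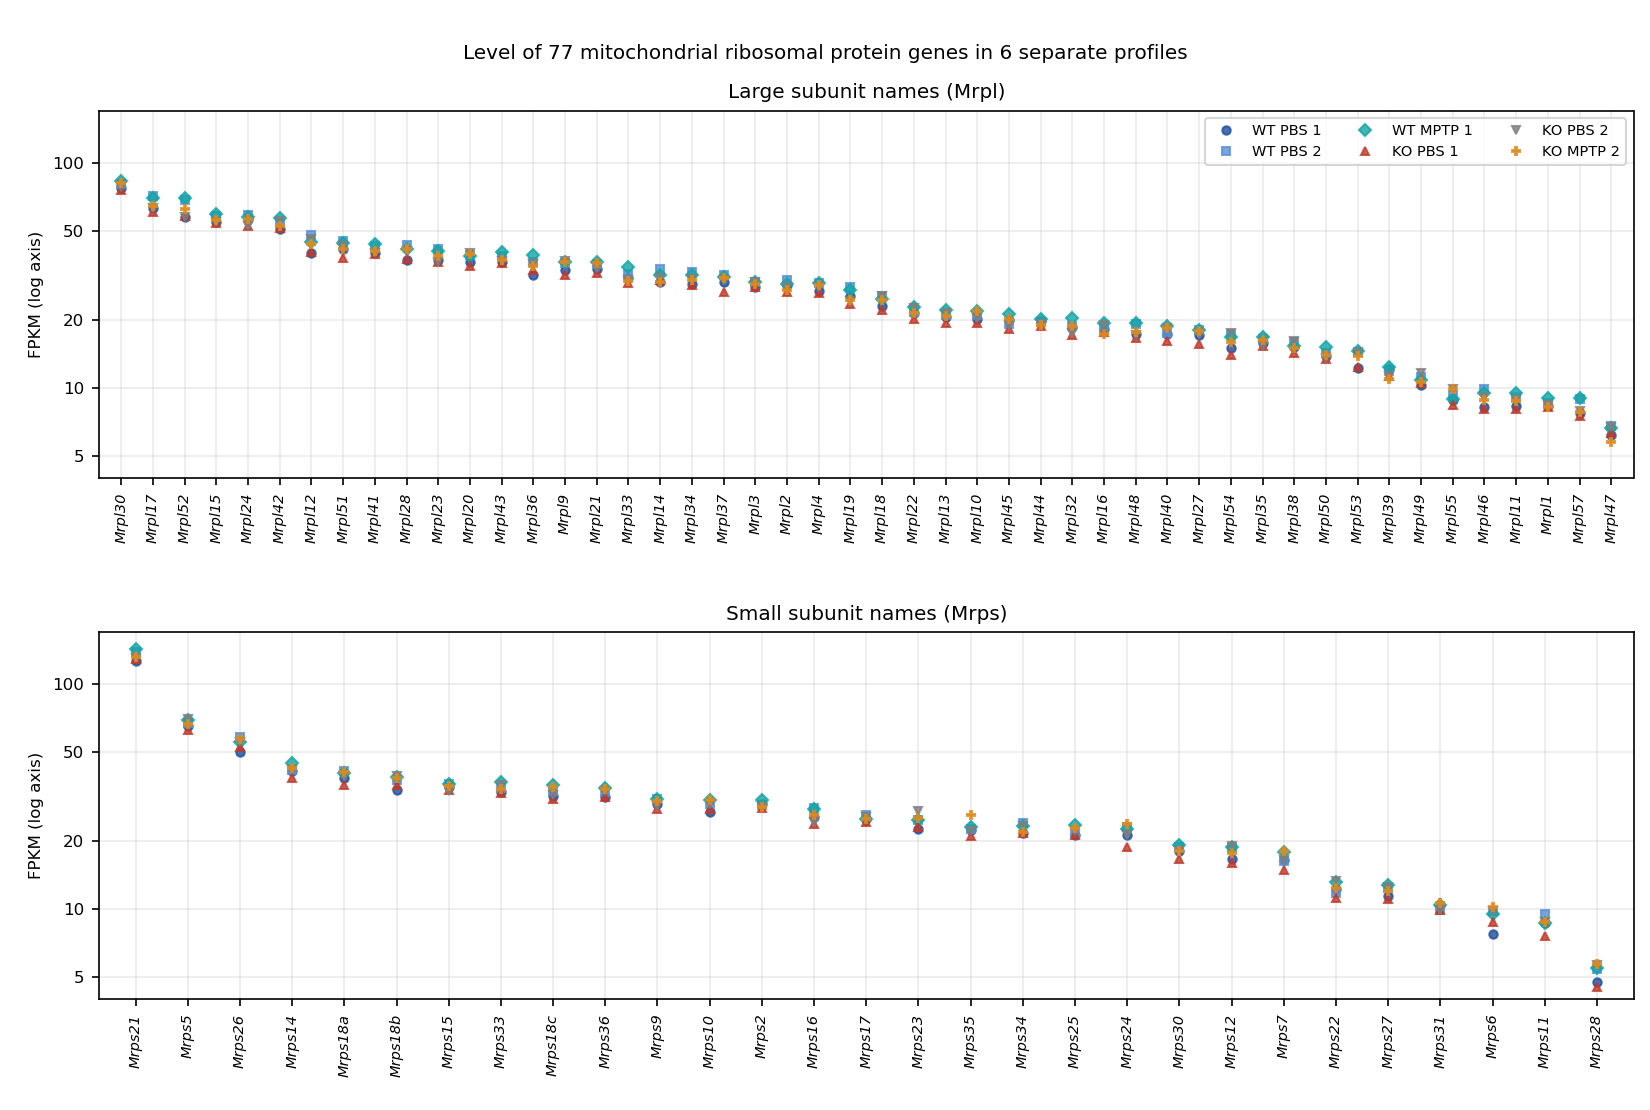
Level of each of the 77 genes in FPKM (log axis) in the 6 separate profiles, with large subunit names above and small subunit names below, ordered by mean level. Each point is 1 profile. The 6 points of a gene lie close together, while means run from 5.26 to 133 FPKM.

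Mrps21, a small subunit protein with a bacterial counterpart, was the most abundant. It measured 126.42, 139.27 and 143.33 FPKM in WT PBS 1, WT PBS 2 and WT MPTP 1, and 128.52, 130.74 and 131.92 FPKM in KO PBS 1, KO PBS 2 and KO MPTP 2. All KO values lay inside the WT range. It was followed by Mrpl30 at 79.5 ± 2.75 FPKM (SD, n = 6 profiles), by Mrps5 at 66.7 ± 2.73, by Mrpl17 at 65.3 ± 4.23, which lies near the exit of the peptide tunnel, and by Mrpl52, a mitochondria-specific protein, at 62.5 ± 5.64 FPKM. At the other end stood Mrps28 at 5.26 ± 0.496 FPKM, Mrpl47 at 6.41 ± 0.387, Mrpl57 at 8.18 ± 0.653, Mrpl1 at 8.48 ± 0.307 and Mrps11 at 8.68 ± 0.611 FPKM. Of the 76 neighbouring pairs in the order of levels, only 14 differed by more than 1 SD. Mrps21 and Mrpl30 each stood clear of the next gene, while most neighbours farther down were not resolved.

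By role, the 17 small subunit proteins with bacterial counterparts had a median of 29.0 FPKM and the 30 such proteins of the large subunit 28.7 FPKM. The mitochondria-specific proteins were lower at the median, 22.8 FPKM for 9 of the small and 18.1 FPKM for 20 of the large subunit. Mrps18a and Mrps30, named for the small subunit, were counted in the large one, where structures place them. Mrps36 was kept apart because its product is now known as a component of the oxoglutarate dehydrogenase complex, and it measured 33.1 ± 1.31 FPKM (SD, n = 6 profiles). The 3 proteins of the stalk and its base, where translation factors dock, were unequal: Mrpl12 averaged 43.6, Mrpl10 20.9 and Mrpl11 8.77 FPKM. Levels per length thus differed severalfold even between neighbours in the structure.

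Levels of genes that work beside them differed widely. Cytosolic ribosomal proteins (81 genes) had a median of 733 FPKM, with Rps18 at 1560 and Rplp0 at 1260 FPKM. Nuclear-encoded complex I subunits (37 genes), whose mitochondrially encoded partners this ribosome makes, had a median of 66.0 FPKM. The 6 ribosome subunits with other names had a median of 34.1 FPKM, led by Aurkaip1 at 75.3 and Dap3 at 67.4 FPKM. The 16 mitochondrial translation factors had a median of 14.0 FPKM, led by the elongation factor Tufm at 49.9 and the mRNA stability factor Lrpprc at 43.8 FPKM. The 28 assembly and rRNA-processing factors had a median of 7.52 FPKM, led by the protease Afg3l2 at 53.0 and the RNA-binding protein Grsf1 at 45.4 FPKM. The 13 mitochondrial mRNAs had a median of 1750 FPKM, with mt-Co1 at 6020 and mt-Atp6 at 5130 FPKM.

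Several table rows stood for 62 of the 77 genes, and 15 had 1 row. What a row is (a transcript, for instance) is not given in the sources used here. The largest row held a median of 93.4% of a gene's value, and under 50% in 6 genes. Rows varied more than genes: among 125 rows averaging at least 2 FPKM the median coefficient of variation was 6.43%, with a highest value of 42.3%. In Mrps21, row 3 measured 110.83, 113.16, 123.37, 113.38, 112.54 and 116.21 FPKM in WT PBS 1 and 2, WT MPTP 1, KO PBS 1 and 2, and KO MPTP 2. Its row 1 measured 14.36, 24.01, 18.68, 13.88, 16.74 and 15.19 FPKM in the same order. The difference between the 2 WT PBS profiles in this gene thus lay mostly in its smaller row. In Mrps10, rows 1 and 9 measured 13.11 and 12.83 FPKM in KO PBS 2 but 10.98 and 15.46 FPKM in KO MPTP 2, while the gene's sum was 29.35 and 30.45 FPKM. In KO PBS 1 these rows measured 11.33 and 13.38 FPKM. Row 9 was above row 1 in every separate profile but KO PBS 2, whose treatment is uncertain.

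Promoter sequence was looked up because PGC-1alpha acts through DNA-binding factors. RefSeq promoter windows of the GRCm38.p6 build, from 250 bases before to 50 after the start, were found for 68 of the 77 genes. A gene was counted when any of its windows held the letters. The letters GCGCATGC, a core bound by NRF1, or their reverse complement GCATGCGC stood in 8 of these genes (11.8%). The share was 6.66% of 8194 tested genes and 3.05% of all 27025 gene symbols with a window. The ETS core bound by GABPA, CCGGAAG on either strand, stood in 25 (36.8%), beside 22.5% of tested genes and 9.93% of all these symbols. The YY1 letters AAGATGGCG on either strand stood in 8 (11.8%), beside 4.12% and 1.64%. The letters TCAAGGTCA of the estrogen-related receptors, on either strand, stood in 0 of 68, beside 0.317% and 0.466%. Matches can share bases: the NRF1 core can overlap its own reverse complement. The end of the ETS letters can be the start of the YY1 letters, and the end of the YY1 letters can be the start of the NRF1 letters. Mrps18a and Mrps27 are counted under both ETS and YY1. The 5 promoter stretches that follow, all with the NRF1 letters within the 100 bases before the start, are shown because they let the motif be read in place in genes of the large subunit. Capitals mark every base of a match to the NRF1 letters or their reverse complement, so overlapping matches form 1 longer run.
Mrpl17, chr7:105811088-105811187, minus strand: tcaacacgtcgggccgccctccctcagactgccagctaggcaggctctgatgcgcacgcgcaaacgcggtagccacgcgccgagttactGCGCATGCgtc
Mrpl22, chr11:58171564-58171663, plus strand: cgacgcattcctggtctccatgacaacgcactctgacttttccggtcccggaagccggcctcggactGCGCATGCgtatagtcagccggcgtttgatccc
Mrpl32, chr13:14613038-14613137, minus strand: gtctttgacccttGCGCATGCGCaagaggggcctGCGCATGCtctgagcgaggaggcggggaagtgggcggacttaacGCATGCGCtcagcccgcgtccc
Mrpl33, chr5:31613851-31613950, plus strand: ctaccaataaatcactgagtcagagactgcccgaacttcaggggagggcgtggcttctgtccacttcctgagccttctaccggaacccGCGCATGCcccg
Mrpl9, chr3:94443236-94443335, plus strand: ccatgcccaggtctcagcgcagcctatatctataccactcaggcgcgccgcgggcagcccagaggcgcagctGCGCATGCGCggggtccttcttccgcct

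Counting both strands, Mrpl32 holds 4 matches in 3 runs, Mrpl9 holds 2 overlapping matches in 1 run, and Mrpl17, Mrpl22 and Mrpl33 hold 1 match each. The 8 genes with the NRF1 letters had a median log2 fold change of -0.069 between KO and WT over both treatments, and the 60 without had -0.053. Under PBS the medians were -0.088 and -0.094. Only the exact letters given and their reverse complements were searched, so other forms of a motif were neither counted nor marked. A match describes the letters and not binding, and no test was made between these groups.

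The 77 genes were low together in some profiles and high together in others. KO PBS 1 held the lowest value of 54 of the 77 genes and WT PBS 1 that of 15. WT MPTP 1 held the highest value of 37 genes, WT PBS 2 of 20, KO PBS 2 of 12 and KO MPTP 2 of 8. Summed over the 77 genes, the levels were 2152, 2315 and 2345 FPKM in WT PBS 1, WT PBS 2 and WT MPTP 1, and 2095, 2232 and 2250 FPKM in KO PBS 1, KO PBS 2 and KO MPTP 2. WT and KO overlapped in these sums. As a share of all FPKM the sums ran from 0.536% in WT PBS 1 to 0.572% in KO PBS 2. The ratio of large to small subunit sums was 1.57, 1.58 and 1.57 in the WT profiles and 1.55, 1.54 and 1.53 in the KO profiles, in the same order. Each KO ratio was thus slightly below each WT ratio, and this difference was not tested.

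The 2 WT PBS profiles, the one pair certain to share its labels, differed about as much as groups did. From WT PBS 1 to WT PBS 2 the median of the 77 genes differed by 0.095 on the log2(FPKM + 1) scale, and 70 of 77 were higher in WT PBS 2. Over all tested genes the median difference was 0.007, with 52.2% higher. From KO PBS 1 to KO PBS 2, whose treatment is uncertain, the median differed by 0.085, and 72 of 77 were higher in KO PBS 2. Part of the shift between profiles was shared by all genes: the median deviation of all tested genes from their own means was -0.059 in KO PBS 1 and 0.042 in WT MPTP 1, where the 77 genes had -0.092 and 0.066. When profiles were rescaled by the median ratio over all tested genes, the lowest value was in WT PBS 1 for 29 genes, in KO MPTP 2 for 23 and in KO PBS 1 for 16. The highest was then in WT PBS 2 for 30 genes, in KO PBS 2 for 27, in WT MPTP 1 for 14 and in KO MPTP 2 for 3.

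**Figure D2:**
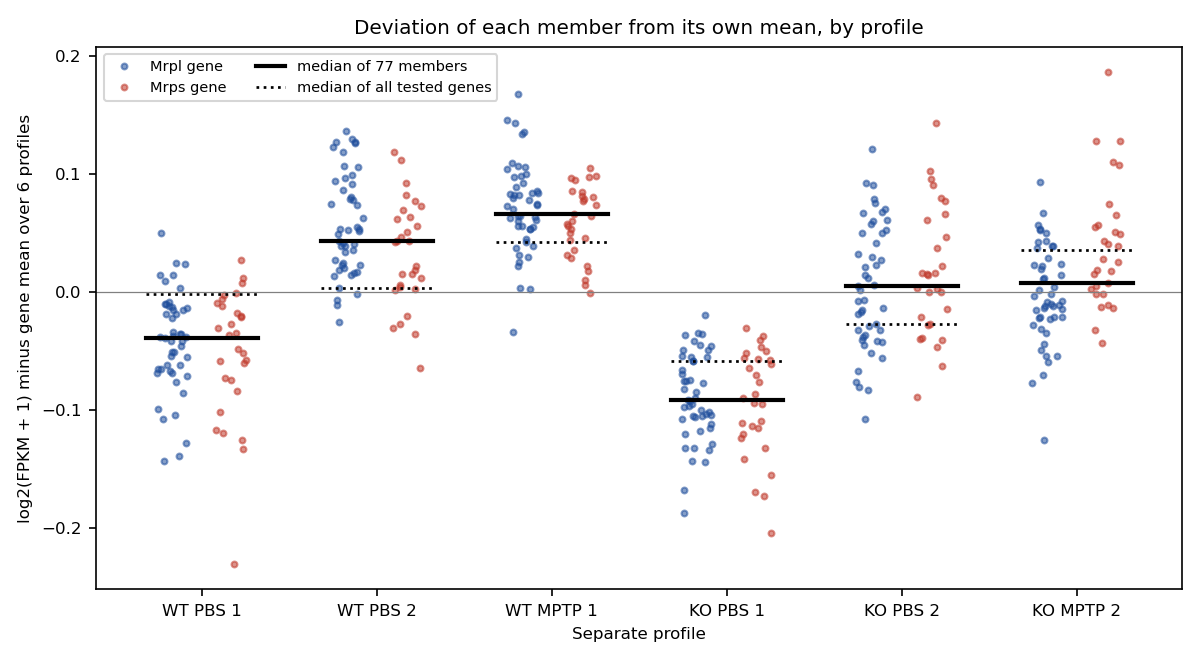
Deviation of each of the 77 genes from its own mean on the log2(FPKM + 1) scale in each separate profile, with large subunit names in blue and small subunit names in red. Solid bars are medians of the 77 genes and dotted bars medians of all tested genes. WT PBS 1 and WT PBS 2, which share all labels, differ by 0.095 at the median of the 77 genes, and KO PBS 1 is the lowest profile.

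Under MPTP in WT, none of the 77 genes passed the test. By limma with Benjamini-Hochberg adjustment over all tested genes, 0 of 77 were called at 0.05, where 0.254% of the 10634 tested genes were, and 0 had an unadjusted p under 0.05, where 2.65% did. The median log2 fold change was 0.064, beside 0.043 for all tested genes, and 72 of 77 were above 0, beside 73.0%. The largest values were those of Mrpl36, a small protein of the large subunit with a bacterial counterpart, at 0.19 ± 0.093 (SE), of Mrpl52 at 0.15 ± 0.10 and of Mrpl33 at 0.13 ± 0.078. Mrpl36 measured 31.83 and 36.51 FPKM under PBS and 38.92 FPKM under MPTP, so the MPTP profile lay above both. The lowest values were -0.053 for Mrps11, -0.019 for Mrpl38 and -0.017 for Mrps17. The result hung on the PBS profile used: without WT PBS 1 the median was 0.019 with 47 of 77 above 0, and without WT PBS 2 it was 0.11 with 77 above 0. Rescaled by the median ratio it was 0.019 with 49 above 0.

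Under MPTP in KO, none of the 77 genes passed the test either. Limma called 0 of 77, beside 0.292% of all tested genes. The unadjusted p was under 0.05 for 4 genes, all higher and all of the small subunit, where 9.23% of all tested genes had such a p. These were Mrps24 at 0.33 ± 0.099 (SE; adjusted p = 0.324), Mrps35 at 0.30 ± 0.091 (adjusted p = 0.33), Mrps28 at 0.28 ± 0.12 (adjusted p = 0.529) and Mrps7 at 0.26 ± 0.095 (adjusted p = 0.439). Mrps24, Mrps28 and Mrps7 have bacterial counterparts and Mrps35 is specific to mitochondria. Mrps24 measured 18.82 FPKM in KO PBS 1 and 23.96 FPKM in KO MPTP 2, with 21.40 FPKM in KO PBS 2 between them. Mrps35 measured 21.11 FPKM in KO PBS 1 and 26.26 FPKM in KO MPTP 2, the highest of all profiles, while the other 5 stayed between 21.11 and 23.25 FPKM.

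All 29 Mrps genes and 43 of 48 Mrpl genes were above 0 in this comparison, with medians of 0.12 and 0.088. The median of the 77 genes was 0.11, beside 0.094 for all tested genes, of which 86.5% were above 0. The lowest values were -0.11 for Mrpl47, -0.036 for Mrpl39 and -0.024 for Mrpl16. With KO PBS 2 in place of KO PBS 1, the median of the 77 genes was 0.001 and 40 of 77 were above 0. Rescaled by the median ratio it was 0.005 with 41 above 0.

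**Figure D3:**
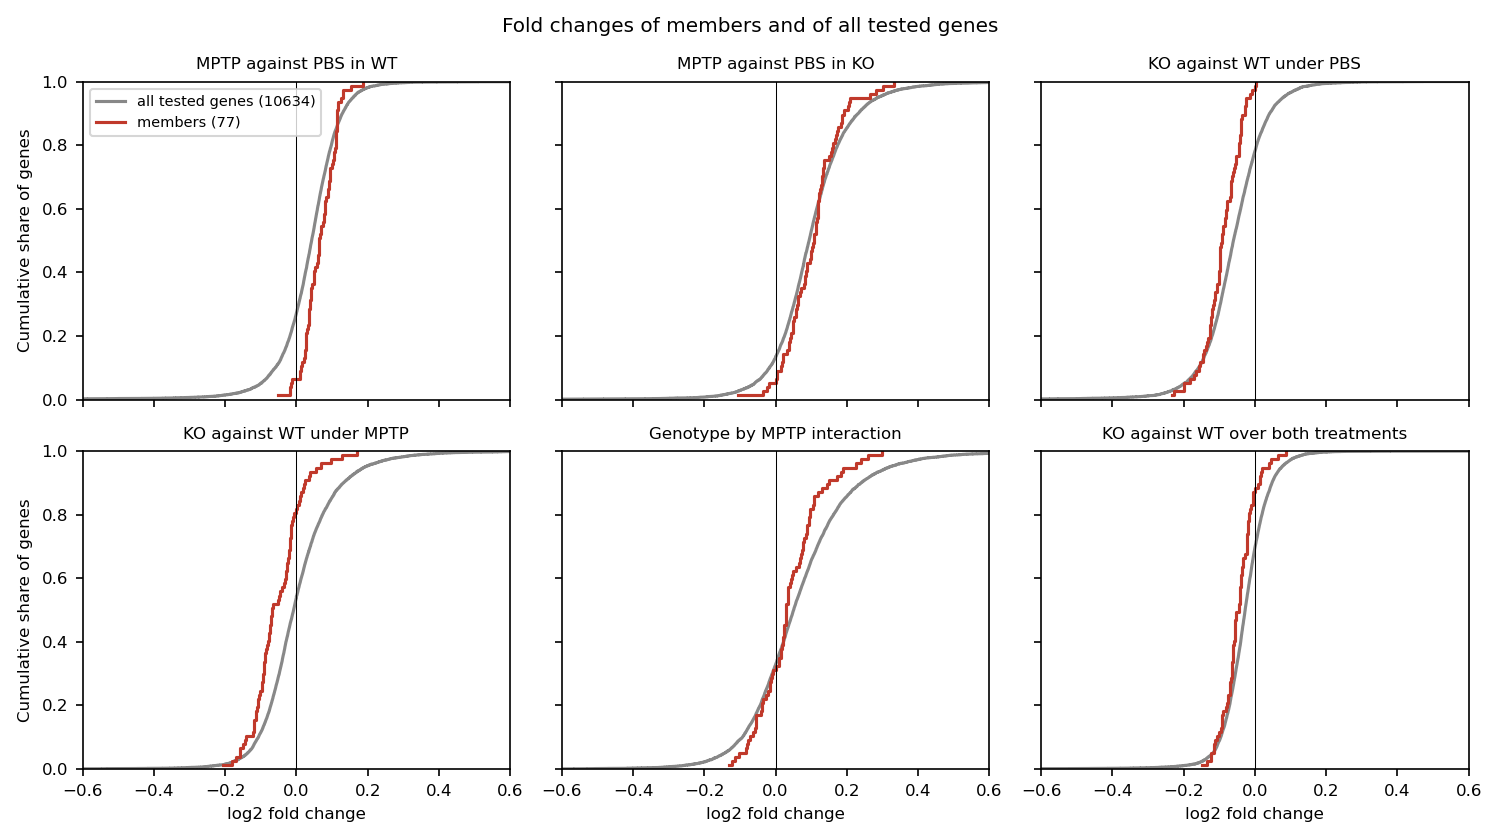
Cumulative share of genes (y axis) against log2 fold change on the log2(FPKM + 1) scale (x axis, cropped at 0.6 to either side) for the 77 genes in red and all 10634 tested genes in grey, in the 6 comparisons. The medians of the red and grey curves differ by less than 0.1 in each panel.

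Between KO and WT under PBS, 76 of the 77 genes had a value below 0 and none passed the test. Limma called 0 of 77, beside 0.226% of all tested genes. The unadjusted p was under 0.05 for 4 genes, all lower, beside 4.42% of all tested genes. They were Mrps11 at -0.23 ± 0.095 (SE), Mrps24 at -0.23 ± 0.086, Mrpl37 at -0.20 ± 0.081 and Mrpl51 at -0.18 ± 0.081, each with an adjusted p of 0.909. Mrps11 measured 8.71 and 9.49 FPKM in WT under PBS and 7.59 FPKM in KO PBS 1, but 8.77 FPKM in KO PBS 2. Mrpl37, a mitochondria-specific protein of the large subunit, measured 29.72 and 31.83 FPKM in WT, 26.65 FPKM in KO PBS 1 and 30.36 FPKM in KO PBS 2. In both genes KO PBS 1 was below both WT PBS profiles and KO PBS 2 was not. The single value above 0 was that of Mrps6 at 0.004 ± 0.12.

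The median of the 77 genes was -0.092, beside -0.060 for all tested genes, of which 22.1% were above 0. With KO PBS 2 in place of KO PBS 1 it was -0.008 with 38 of 77 above 0, and -0.029 with 23 above 0 after median-ratio rescaling. Profile by profile, KO PBS 1 differed from WT PBS 2 by -0.131 at the median, with 76 of 77 genes lower, and from WT PBS 1 by -0.049, with 60 lower. In the fit that adds KO PBS 2 as KO PBS, the median was -0.040 with 14 above 0, -0.085 with 5 above 0 without WT PBS 1, and -0.002 with 35 above 0 without WT PBS 2. The comparison shares KO PBS 1 with that of MPTP in KO and the WT PBS profiles with that of MPTP in WT. For Mrps24 the value was -0.23 between genotypes under PBS and 0.33 for MPTP in KO, and both rest on the low KO PBS 1 value.

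Between KO and WT under MPTP, with 1 profile each, 63 of the 77 genes were below 0 and none passed the test. Limma called 0 of 77, beside 0.103% of all tested genes. The unadjusted p was under 0.05 only for Mrpl33, beside 3.59% of all tested genes. Mrpl33, a protein of the large subunit with a bacterial counterpart, measured 34.55 FPKM in WT and 29.83 FPKM in KO under MPTP, a value of -0.21 ± 0.090 (SE, adjusted p = 1.0). Next were Mrpl57 at -0.18 ± 0.12 and Mrpl47 at -0.17 ± 0.11. The highest values were 0.17 ± 0.091 for Mrps35, 0.13 ± 0.11 for Mrpl55 and 0.097 ± 0.14 for Mrps6.

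The median of the 77 genes under MPTP was -0.070, beside -0.008 for all tested genes, of which 45.7% were above 0. It was -0.061 after median-ratio rescaling. By name the median was -0.085 for Mrpl with 45 of 48 below 0, and -0.024 for Mrps with 18 of 29 below 0. The difference between the subunits was not tested. This was the comparison in which the 77 genes stood farthest from all tested genes at the median, by -0.062, and WT PBS 2 stood from WT PBS 1 by 0.088 on the same measure. It rests on KO MPTP 2: from WT MPTP 1 to KO PBS 2, the profile that also stands under KO MPTP, the median difference was -0.054 for the 77 genes and -0.068 for all tested genes.

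The interaction asks whether the MPTP difference itself differed between genotypes. Limma called 0 of 77 genes, beside 0.0752% of all tested genes. The unadjusted p was under 0.05 only for Mrps24, at 0.30 ± 0.13 (SE, adjusted p = 0.941), beside 5.17% of all tested genes. Mrps35 at 0.26 ± 0.12 and Mrps11 at 0.24 ± 0.15 were next, and the lowest values were -0.13 for Mrpl47, -0.12 for Mrpl36 and -0.11 for Mrpl33. The median was 0.030 with 53 of 77 above 0, beside 0.050 and 67.1% for all tested genes. Its sign was not stable. It was -0.026 after median-ratio rescaling and -0.017 when KO PBS 2 was added as a KO PBS profile. In that wider fit it was -0.061 without KO PBS 1 and -0.066 without WT PBS 2.

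Over both treatments, 3 WT profiles could be set against 3 KO profiles. Limma called 0 of 77 genes, beside 0.0376% of all tested genes. The unadjusted p was under 0.05 only for Mrpl19, a large subunit protein with a bacterial counterpart, beside 3.49% of all tested genes. Mrpl19 measured 25.69, 28.08 and 27.39 FPKM in WT PBS 1, WT PBS 2 and WT MPTP 1, and 23.75, 24.42 and 24.73 FPKM in KO PBS 1, KO PBS 2 and KO MPTP 2. No KO value reached the lowest WT value, and the log2 fold change was -0.15 ± 0.056 (SE, adjusted p = 0.997). It was followed by Mrpl52 at -0.13 ± 0.067 and Mrpl57 at -0.12 ± 0.066. On the other side stood Mrps6 at 0.087 ± 0.078, Mrps23 at 0.064 ± 0.065 and Mrpl55 at 0.046 ± 0.066.

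The 95% intervals of the 77 values lay between -0.275 and 0.251. The median was -0.045 with 9 of 77 above 0, beside -0.027 and 30.5% for all tested genes. By name it was -0.058 for Mrpl and -0.032 for Mrps. By role it was -0.070 for the mitochondria-specific proteins of the large subunit and -0.010 for those of the small subunit. Without KO PBS 1 the median of the 77 genes was -0.009 with 31 above 0, without WT MPTP 1 it was -0.025 with 21 above 0, and without WT PBS 1 it was -0.080 with 3 above 0. After median-ratio rescaling it was -0.011 with 28 above 0.

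**Figure D4:**
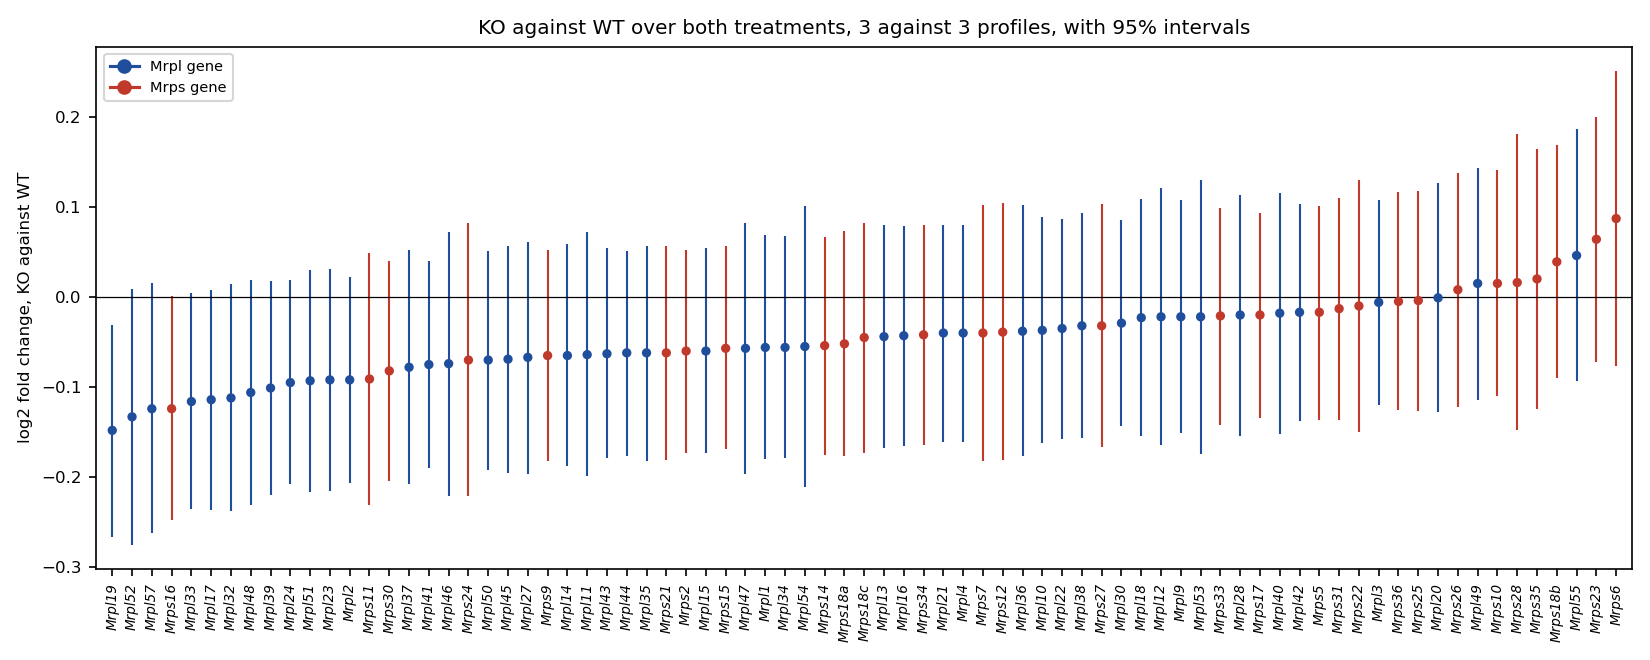
Log2 fold change between KO and WT over both treatments (y axis, log2(FPKM + 1) scale) for each of the 77 genes, ordered by value. Points are limma estimates from 3 profiles against 3, bars are 95% intervals, and blue and red mark Mrpl and Mrps names. The interval of Mrpl19 lies below 0, and those of the other 76 genes include 0.

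All 3 KO profiles lay below all 3 WT profiles in 6 of the 77 genes (7.79%), beside 7.19% of all tested genes, a share near the background. These were Mrpl19, Mrpl2, Mrpl33, Mrpl39, Mrpl44 and Mrps2. Mrpl44, a protein of the RNase III fold, measured 19.84, 19.68 and 20.29 FPKM in WT and 18.80, 19.27 and 19.09 FPKM in KO, in the order used above. None lay above in all 3, beside 0.818% of all tested genes. After median-ratio rescaling 4 genes did not overlap, Mrpl19, Mrpl24, Mrpl32 and Mrps16, beside 4.56% of tested genes, and only Mrpl19 was in both sets. With 3 profiles against 3, the smallest p an exact permutation test can give is 0.1.

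Other genes of mitochondrial translation were not called either. Limma called 0 of the 6 subunits with other names, 0 of 16 translation factors and 0 of 26 tested assembly and rRNA factors in each of the 6 comparisons. For KO against WT over both treatments their medians were -0.090, -0.052 and -0.034, with 0 genes of any list at an unadjusted p under 0.05. The 81 cytosolic ribosomal proteins had -0.10 in that comparison, beside -0.027 for all tested genes, with 0 called and 13 lower at an unadjusted p under 0.05, beside 3.49% of all tested genes. The 13 mitochondrial mRNAs, which the mitochondrial ribosome translates, were all above 0 under MPTP in WT, with a median of 0.29, beside 0.043 for all tested genes. Of the 13, 8 had an unadjusted p under 0.05, beside 2.65% of all tested genes, and 0 were called. Under MPTP in KO their median was 0.098, beside 0.094 for all tested genes, with 12 above 0, 0 called and 0 at an unadjusted p under 0.05. In mt-Nd1, which encodes a complex I subunit, WT PBS 1 and WT PBS 2 measured 1811.33 and 2356.08 FPKM and WT MPTP 1 measured 2940.65 FPKM. Its log2 fold change for MPTP in WT, 0.51, was the largest of the 13, while mt-Co1 had 0.15 and mt-Atp6 0.22. The fold changes for MPTP in WT all rest on the single MPTP profile WT MPTP 1. Those for MPTP in KO rest on KO PBS 1 and KO MPTP 2.

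Among 37 complex I subunits, limma called Ndufs8, an iron-sulfur subunit, lower under MPTP in WT (log2 fold change -0.61, adjusted p = 0.0145) and in KO (-0.66, adjusted p = 0.0283). In WT, Ndufs8 measured 51.07 and 56.42 FPKM under PBS and 34.71 FPKM under MPTP. In KO it measured 37.99 FPKM in PBS 1, 34.52 FPKM in PBS 2 and 23.75 FPKM in MPTP 2. It is also 1 of 42 genes with a row that departs from the arithmetic relations between columns, which no row of the 77 genes did.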

How the data were processed

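RNA-seq of 12 samples of sorted midbrain microglia was deposited by the authors as 1 table of 67355 rows. CASAVA 1.5, Bowtie 0.12.7, TopHat, Cufflinks and the build mm9 are named, without roles, per the submitters' processing notes. The unit is not stated. The deposited values were taken as FPKM, which Cufflinks writes. Annotation, filters and strand are not stated in any source used here. No counting interval is given, since read depth is unknown.

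Rows were summed per symbol into 21125 genes, leaving out 1 row with text in place of a number. A column counted as computed when it followed its relation to within 0.00995 FPKM (relations on a mean) or 0.0101 FPKM (multiples), the limits of rounding. Promoters were matched by symbol to RefSeq on GRCm38.p6, a build other than that of the files, for sequence only.

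Limma 3.58.1 in R 4.3.3 was fitted to log2(FPKM + 1), with a trend of variance on mean, for 10634 genes with at least 1 FPKM in at least 3 of 6 profiles, with Benjamini-Hochberg adjustment over all of them and a threshold of 0.05. The scale understates changes of low genes. The fit for treatments used 5 profiles and had 1 residual and 9.01 prior degrees of freedom. Single profiles were thus assumed to vary like the WT PBS pair. The fit of 3 WT against 3 KO profiles had 4 residual and 13.7 prior degrees of freedom. The procedure was also run on simulated data with noise independent between genes. Such data hold no shift shared by the genes of a profile, so the run does not cover such shifts. Alternatives were other pseudocounts (0.1, 0.5), filters (none, 5 FPKM) and scalings, each profile left out, the profile under 2 labels counted as either treatment, a replicate block, and all 12 columns taken as libraries.

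The members and lists were chosen with earlier results of these data known. Named members are, per comparison, the 3 largest rises and falls, called members, and the 5 of highest and lowest mean. From other lists, called genes or the 2 of highest mean are named. Genes with an unadjusted p under 0.05, Mrps10, Mrps36, the stalk proteins, Mrpl44, mt-Nd1 and the genes with printed promoters were added after their values were seen. 1 listed marker gene is not reported here.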

Additional observations from a re-analysis of the deposited data

How the results depend on the processing

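Over 14 to 18 alternatives per comparison that keep to the separate profiles, limma called 0 of the 77 genes each time. Members at an unadjusted p under 0.05 reached 14 for MPTP in WT, 15 for MPTP in KO, 8 and 20 for KO against WT under PBS and MPTP, 7 for the interaction and 10 for KO against WT over both treatments, and were as few as 0 in each. The lowest adjusted p among them was 0.419 for MPTP in WT, 0.206 for MPTP in KO, 0.388 and 0.374 for KO against WT under PBS and MPTP, 0.333 for the interaction and 0.211 for KO against WT over both treatments. Taking all 12 columns as libraries, computed columns included, called 25 and 0 genes for MPTP in WT and KO, 7 and 25 for KO against WT under PBS and MPTP, 0 for the interaction and 12 over both treatments. With the replicate block the same 12 columns gave 33 and 24, 26 and 31, 4 and 11. Computed columns have no error of their own, so these counts do not measure replicate spread.

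The replicate numbers were not taken as pairs: only 2 pairs exist. The same-number deviations of WT PBS and KO PBS correlated at 0.227 across genes. The members, however, shifted the same way in both genotypes. From replicate 1 to 2 their median rose by 0.095 in WT PBS, beside 0.007 for all tested genes. In KO PBS, whose replicate 2 has an uncertain treatment, it rose by 0.085, beside 0.031. MPTP in KO compared KO PBS 1 with KO MPTP 2, and KO against WT under MPTP compared WT MPTP 1 with KO MPTP 2. There replicate number cannot be told apart from treatment or genotype, and its part was not tested. On separate profiles the replicate block called 0 members in each comparison.

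Some named members without a call changed sign. In MPTP in WT the replicate block gave 0.022 for Mrps11, 0.037 for Mrpl38 and 0.015 for Mrps17. Leaving out 1 profile gave -0.109 to 0.003 for Mrps11, -0.052 to 0.014 for Mrpl38 and -0.044 to 0.011 for Mrps17, above 0 without WT PBS replicate 2. In MPTP in KO, Mrpl16 was 0.002 with 12 columns, with or without the block, and 0.037 or 0.051 with the profile under 2 labels as KO MPTP. For KO against WT, leaving out 1 profile gave Mrps6 -0.068 to 0.233 under PBS and -0.007 to 0.148 over both treatments, below 0 without WT PBS replicate 1. Where a WT PBS or the KO PBS 1 profile was left out of a comparison by treatment, KO PBS 2 was also counted as KO PBS. With the block, KO against WT under MPTP was -0.132 for Mrps6 and -0.010 for Mrpl55, and the interaction -0.001 for Mrps11. The cause was not tested.

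Read depth is unknown, and each group but WT PBS has 1 profile of certain treatment, which limits the precision of every comparison.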
